A study of Mus musculus with 2 samples.

Results

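The 48 genes described here encode parts of the sarcomere, the contractile unit of striated muscle, and of the machinery that couples membrane excitation to contraction. They were taken from a list of gene names, and all 48 were found among the 21896 positioned protein-coding genes of RefSeq (GRCm38.p6, the assembly of mm10). A peak was given to a gene when its summit lay inside the gene span or within 20 kb of it. By that rule 84 of the 51356 peaks of the deposited list lay at the 48 genes. The peaks came from chromatin immunoprecipitation sequencing (ChIP-seq) in the mouse myoblast line C2C12 and were called to mark where the protein MMH was bound. MMH is a codon-altered chimera with the homeodomains of mouse Dux at its N-terminus and the C-terminus of human DUX4 after them. The cells were a single clone carrying MMH under doxycycline control and kept in puromycin, and they were treated with 2 ug/ml doxycycline for 18 h. The 2 libraries were 1 precipitated with a mixture of MO488 and MO489, antibodies against human DUX4, and 1 control precipitated with anti-HA, both from induced MMH cells. The series' design text instead names a GFP antibody for the control, and which antibody was used was not settled here. No uninduced or transgene-free library was analysed here, and the files hold no expression values, so the identity of the cells was not checked against muscle markers. Per the file headers, 26253175 fragments of the antisera library and 23412256 of the control remained after duplicate removal. With 1 library per antibody no replicate error could be measured, so the comparisons below are descriptions of a single peak list without a test between conditions.

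In the sarcomere, myosin motors of the thick filament pull on actin of the thin filament, and thin filaments are anchored at the Z-disc. Contraction starts when calcium leaves the sarcoplasmic reticulum through the ryanodine receptor, binds troponin and moves tropomyosin off the actin surface. Myoblasts such as C2C12 switch most of these genes on when they leave the cell cycle and fuse into myotubes. Dux and DUX4 are double-homeodomain transcription factors of the early embryo, and DUX4 expression in skeletal muscle causes facioscapulohumeral dystrophy.

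The strongest peak at any of the 48 genes lay inside *Myl4*, and its summit fell within the start-site window of the long noncoding RNA gene *Gm11665*, so the sequence beneath it can be shown. The peak, at chr11:104562032-104562697, had a pileup of 206 antisera fragments over a local background of 4.01. Pileup counts the antisera fragments that cover the summit, the local background is the rate the peak caller set against it, and fold enrichment is the ratio of the first to the second with 1 added to each. The background of 4.01 is the lowest in the list and was shared by 78.0% of all peaks, so there it is a floor and not an estimate for that place. The peak's fold enrichment was 41.3 (35.9 to 47.3, from the exact Poisson 95% interval of the pileup with the background kept constant, as for all fold values below). The RefSeq window (GRCm38.p6, chr11:104562149-104562448, minus strand) lies wholly under the peak and is printed with the word nearest to the Dux core in capitals.
Gm11665 window: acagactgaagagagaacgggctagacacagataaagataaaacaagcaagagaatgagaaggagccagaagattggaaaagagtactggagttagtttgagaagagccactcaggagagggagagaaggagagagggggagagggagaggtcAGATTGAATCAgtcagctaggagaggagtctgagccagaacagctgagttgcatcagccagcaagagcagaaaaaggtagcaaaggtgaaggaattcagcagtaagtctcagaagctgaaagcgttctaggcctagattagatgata
Both strands were searched for 2 cores of 11 bases, each with 2 free bases after the first 4 letters. The DUX4 core is TAAT, then the free bases, then AATCA, and the Dux core is TGAT, then the free bases, then AATCA. The Dux core can match both strands at the same place, and a window counted once per core. Neither core was present in full in this window. The word in capitals, AGATTGAATCA, differs from the Dux core at a single position, T1A, counted from 1 at the 5′ end of the core. It occupies chr11:104562285-104562295, and the summit, at 104562285, is the last base of the word as printed. Among all 32851 start-site windows this 11-base word, chosen after its sequence was seen, was present in 4. Each of the 4 held a summit, *Gm11665* by construction, since the word was read under its summit. Those segments of 31 bases, each with the word in capitals, are printed for comparison with the site in *Myl4*.
Gm11665 in Myl4, chr11:104562275-104562305, minus strand: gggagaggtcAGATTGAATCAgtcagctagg
Dcun1d4, chr5:73484678-73484708, plus strand: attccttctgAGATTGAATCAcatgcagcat
Xkrx, chrX:134163154-134163184, plus strand: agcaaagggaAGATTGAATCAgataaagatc
Gm51988, chr12:83144904-83144934, minus strand: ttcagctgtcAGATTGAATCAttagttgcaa
The summit lay within the word at *Gm11665*, *Xkrx* and *Gm51988* and 7 bp from it at *Dcun1d4*. Fold enrichment there was 41.3 at *Gm11665*, 33.7 at *Dcun1d4*, 23.1 at *Xkrx* and 16.4 at *Gm51988*. The *Myl4* site, which had been picked as the strongest at the 48 genes, was the highest of the 4.

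The only other RefSeq start-site window under a peak of these genes was that of *Dnaaf3*, an assembly factor of ciliary dynein arms, which lies on the upstream side of the neighbouring troponin genes *Tnni3* and *Tnnt1*. The peak, at chr7:4532505-4532901, had a pileup of 37 over a background of 4.01, a fold enrichment of 7.58 (5.40 to 10.4). Its summit, at 4532729, lay just beyond the window (chr7:4532416-4532715, minus strand), of which the 211 bases under the peak are in capitals.
Dnaaf3 window: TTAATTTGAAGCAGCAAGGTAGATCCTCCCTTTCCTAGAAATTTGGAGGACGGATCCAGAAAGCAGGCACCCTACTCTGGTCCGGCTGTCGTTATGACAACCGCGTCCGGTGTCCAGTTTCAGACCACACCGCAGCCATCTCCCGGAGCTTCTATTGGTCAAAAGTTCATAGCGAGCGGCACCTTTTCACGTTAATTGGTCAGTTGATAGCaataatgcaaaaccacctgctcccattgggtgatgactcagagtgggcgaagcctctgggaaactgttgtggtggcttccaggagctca
Neither core was found in it, which says only that these letters are not in this window. Start-site windows were available for 39 of the 48 genes, as 45 windows. The DUX4 core was in 0 of the 45 windows, against 0.350% of all 32851, and the Dux core in 0 of the 45, against 0.207% of all. At such low shares 45 windows would rarely hold a match. The shorter stretch that ends both cores, AATCA, on either strand, was in 8 of the 45 windows (17.8%), against 37.0% of all. Whether this share differs from the background was not tested. Of the 379 windows with a summit, 3.17% held the DUX4 core and 6.60% the Dux core, against 0.317% and 0.132% of the 32472 windows without a summit.

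A summit lay inside or within 20 kb of 29 of the 48 genes (60.4%, exact binomial 95% interval 45.3 to 74.2%), against 62.2% of all protein-coding genes. The share of these muscle genes with a peak was thus close to the background. Longer genes catch more summits, so the count was also set out by span. Among members under 10 kb, 7 of 13 had a summit, against 46.3% of coding genes of that span. Among those of 10 to 50 kb, 12 of 22 had a summit, against 62.2%. Among those over 50 kb, 10 of 13 had a summit, against 88.0%. Each background share lay within the wide binomial interval of the members.

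The share ran from 44.4% to 85.7% over the role groups, and the interval of each covered the background of 62.2%. Thick filament genes, with the M-band proteins that cross-link them, had a summit in 8 of 18 cases (44.4%, 21.5 to 69.2%). Thin filament genes had a summit in 9 of 14 (64.3%, 35.1 to 87.2%). Z-disc genes had a summit in 6 of 7 (85.7%, 42.1 to 99.6%), and calcium-handling genes in 5 of 7 (71.4%, 29.0 to 96.3%). Of the remaining pair, *Ttn* had a summit and *Ckm* had none. The groups hold few genes of unequal length, and no test between them was made.

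**Figure D1:**
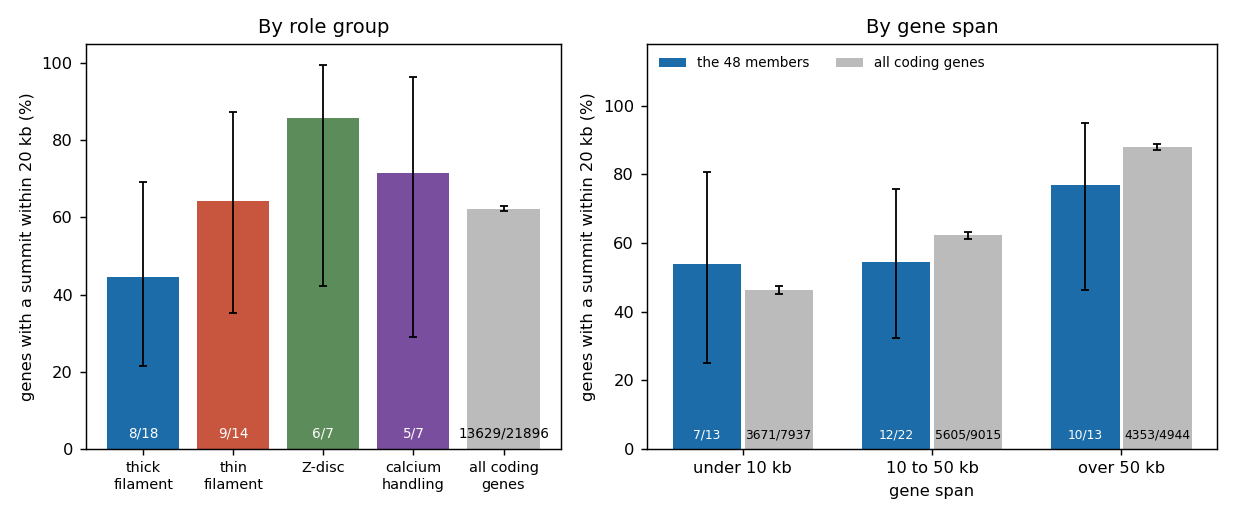
Share of genes with a peak summit inside or within 20 kb, by role group (left) and by gene span (right), beside all protein-coding genes in grey. Bars are percentages with exact binomial 95% intervals, and numbers at the foot are genes with a summit over genes in the group; the intervals of the 4 role groups all take in the 62.2% of all coding genes.

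Peak strength at the members was also like that of the list. The 84 peaks had a median fold enrichment of 8.88 (range 3.14 to 41.3), against 8.02 over all peaks, and a median width of 430 bp, against 430 bp. Enrichment reached 20-fold at 11 of the 84 peaks (13.1%), against 13.7% of the whole list. Taking each gene's best peak, 10 of the 48 genes reached 20-fold (20.8%), against 17.3% of coding genes. Over the 29 members with a summit the median best fold enrichment was 15.8, against 12.2 over coding genes with a summit, a value inside the 95% order-statistic interval of the members' median (9.18 to 20.7). The background under the members' summits ran from 4.01 to 6.73 fragments, and 71 of the 84 peaks (84.5%) stood at the floor of 4.01, against 78.0% of the whole list.

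Among the thick filament genes, the fast myosin heavy chain genes *Myh1* (the IIx isoform) and *Myh4* (the IIb isoform) shared a single strong peak. Its summit lay between the genes, 8853 bp beyond the 3′ end of *Myh1* and 4382 bp upstream of *Myh4*, inside the antisense long noncoding RNA gene *Myhas*. The pileup was 201 over a background of 5.05, a fold enrichment of 33.4 (29.0 to 38.3), with a −log10 q of 236. The other heavy chain genes had no summit within 20 kb. The nearest summit was 35.9 kb from *Myh2* (fast IIa), 32.4 kb from *Myh3* (embryonic), 26.8 kb from *Myh8* (perinatal), 47.4 kb from *Myh6* (cardiac alpha) and 20.8 kb from *Myh7* (cardiac beta and slow).

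The myosin light chain genes ranged from the strongest peak of all to none. *Myl4*, an atrial and embryonic essential light chain, had the single 41.3-fold peak described above, 11.6 kb downstream of its listed start site. *Myl1*, the fast skeletal essential light chain, had 5 peaks, 3 of them inside its 23.6 kb span. Fold enrichment along *Myl1* was 11.8, 9.37, 11.2, 15.8 and 10.2 in order of coordinate, with pileups of 58, 46, 55, 78 and 78. The last of these, 8190 bp upstream of the span, stood over a background of 6.73, so its fold enrichment was lower than that of the fourth peak at equal pileup. *Myl2*, *Myl3* and *Mylpf*, which encode the slow and cardiac regulatory, the slow and cardiac essential and the fast regulatory light chain, had none, with the nearest summits at 20.5, 96.3 and 25.9 kb.

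Of the myosin-binding proteins, *Mybpc1* (slow isoform) had 4 peaks, with fold enrichment of 8.98 downstream, 12.4 inside the gene (9.78 to 15.5), and 8.18 and 9.57 at 2057 and 3664 bp upstream of the span. *Mybph* had 1 peak of 16.6-fold (13.2 to 20.5), 14.8 kb downstream and inside *Adora1*, an adenosine receptor gene. *Mybpc2*, the fast isoform, had none within 66.0 kb. The M-band gene *Myom1* had a 17.2-fold peak inside the gene (13.7 to 21.2) and 3 weaker ones upstream, of 6.18, 5.59 and 5.39-fold, whose summits lay inside *Myl12b* and *Myl12a*, the non-sarcomeric regulatory light chain genes next to it. *Myom3* had a 14.2-fold peak inside the gene and a 7.98-fold peak downstream. *Myom2* had none, and its nearest summit was 183.8 kb away.

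Among the thin filament genes the strongest peaks lay outside the genes. At *Tnnc2*, the fast troponin C that binds calcium, a pileup of 136 over 4.01 gave 27.3-fold enrichment (23.0 to 32.3), 17.6 kb upstream and inside *Acot8*, and a second peak 4057 bp downstream had 9.77-fold. At *Tnni1*, the slow inhibitory troponin I, a pileup of 109 gave 21.9-fold enrichment (18.1 to 26.4), 14.6 kb upstream and inside *Phlda3*. A further *Tnni1* peak of 10.4-fold lay inside the span, 4916 bp upstream of the nearer listed start site. *Tpm3*, the slow tropomyosin, had peaks of 17.6-fold (14.3 to 21.5) and 10.8-fold, 4426 and 15696 bp upstream.

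*Neb*, the giant ruler protein of the thin filament, had 5 peaks, all inside its 202.2 kb span. The highest had a pileup of 103, or 20.7-fold enrichment (17.0 to 25.1), and the others had 4.59, 7.38, 9.77 and 6.38-fold. The remaining members of the group with a summit were weak. *Tnnt1* (slow troponin T) and *Tnni3* (cardiac troponin I) shared the 7.58-fold peak shown above, and *Tnnt1* had another of 5.19-fold. Each of *Tpm2* (6.58-fold, 19.4 kb away), *Tpm1* (5.59-fold, 19.4 kb away) and *Actc1* (cardiac actin, 5.19-fold, 9601 bp downstream) had 1 peak. No summit lay within 20 kb of *Acta1*, skeletal muscle actin (58.9 kb to the nearest), *Tnnt2* (41.8 kb), *Tnnt3* (207.9 kb), *Tnni2* (157.1 kb) or *Tnnc1* (82.5 kb).

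At the Z-disc, the strongest peaks lay just beyond the 3′ ends of 2 genes. *Des*, the intermediate filament protein that links neighbouring Z-discs, had a pileup of 124 over 4.01, or 24.9-fold enrichment (20.8 to 29.7), 1421 bp beyond its end and inside the long noncoding RNA gene *Gm15179*. *Myoz2*, a calcineurin-binding Z-disc protein of slow and cardiac muscle, had a pileup of 116, or 23.3-fold (19.3 to 28.0), 1308 bp beyond its end. Further peaks lay 17.2 kb upstream of *Des* (7.98-fold) and 19.3 kb downstream and 18.7 kb upstream of *Myoz2* (10.4 and 3.14-fold), the last being the weakest of all 84.

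*Myoz1*, the fast-fibre relative of *Myoz2*, had a 15.0-fold peak (11.8 to 18.7) 9058 bp away, inside *Usp54*. The peaks of *Ldb3* (7.18-fold, 17.9 kb upstream), *Actn2* (alpha-actinin, 5.98-fold, inside the gene) and *Actn3* (the fast alpha-actinin, 4.79-fold, 6810 bp away) were weak, with overlapping intervals of 5.06 to 9.91, 4.07 to 8.51 and 3.11 to 7.08. *Tcap*, which caps titin at the Z-disc, had none within 26.4 kb.

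The calcium-handling group held the member with the most peaks. *Trdn* encodes triadin, which ties calsequestrin to the ryanodine receptor, and had 22 peaks, of which 20 lay inside its 393.2 kb span. The strongest had a pileup of 199 over 4.01, or 39.9-fold enrichment (34.6 to 45.8), an interval that overlaps that of the *Myl4* peak, and at 2009 bp it was the widest of the 84. The next had pileups of 160 and 106, or 32.1-fold (27.4 to 37.5) and 21.3-fold (17.5 to 25.8), and are neighbours in the gene. Of the 20 inside peaks 8 stayed under 6-fold, and their median was 7.28.

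*Jph1*, junctophilin 1, which holds the membrane of the transverse tubule against the sarcoplasmic reticulum, had 10 peaks, 9 inside its 155.8 kb span. None reached 20-fold. The highest was 13.8-fold (10.7 to 17.4) and the median of the 9 was 5.78. All 9 lay in the low-coordinate part of the gene, and the last 71.2 kb held no summit. *Atp2a1*, the calcium pump of fast fibres, had 1 peak of 20.1-fold (16.4 to 24.5), 14.5 kb upstream. *Casq1*, the calcium-storing calsequestrin of fast muscle, had a 10.6-fold peak (7.95 to 13.8) 12.2 kb downstream, inside *Pea15a*. *Ryr1*, the calcium release channel, had peaks of 9.08-fold inside the gene and 9.18-fold 13.2 kb upstream, inside *Rasgrp4*. *Casq2*, the cardiac calsequestrin, had none within 49.5 kb. *Cacna1s*, the voltage sensor of the transverse tubule, had no summit by the rule, but a 34.9-fold peak lay 22.6 kb from it.

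Of the genes outside the 4 groups, *Ttn*, the giant elastic protein that runs from Z-disc to M-band, had 5 peaks inside its 278.6 kb span. Their fold enrichment was 15.8, 17.2, 5.39, 5.40 and 5.98 in order of coordinate, and the last lay 3969 bp downstream of the start site. *Ckm*, the muscle creatine kinase, had no summit within 41.1 kb. The 20 kb limit fell between *Tpm2* and *Tpm1*, just inside it at 19436 and 19370 bp, and *Myl2* and *Myh7*, just outside it at 20462 and 20773 bp with peaks of 9.66 and 4.39-fold.

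**Figure D2:**
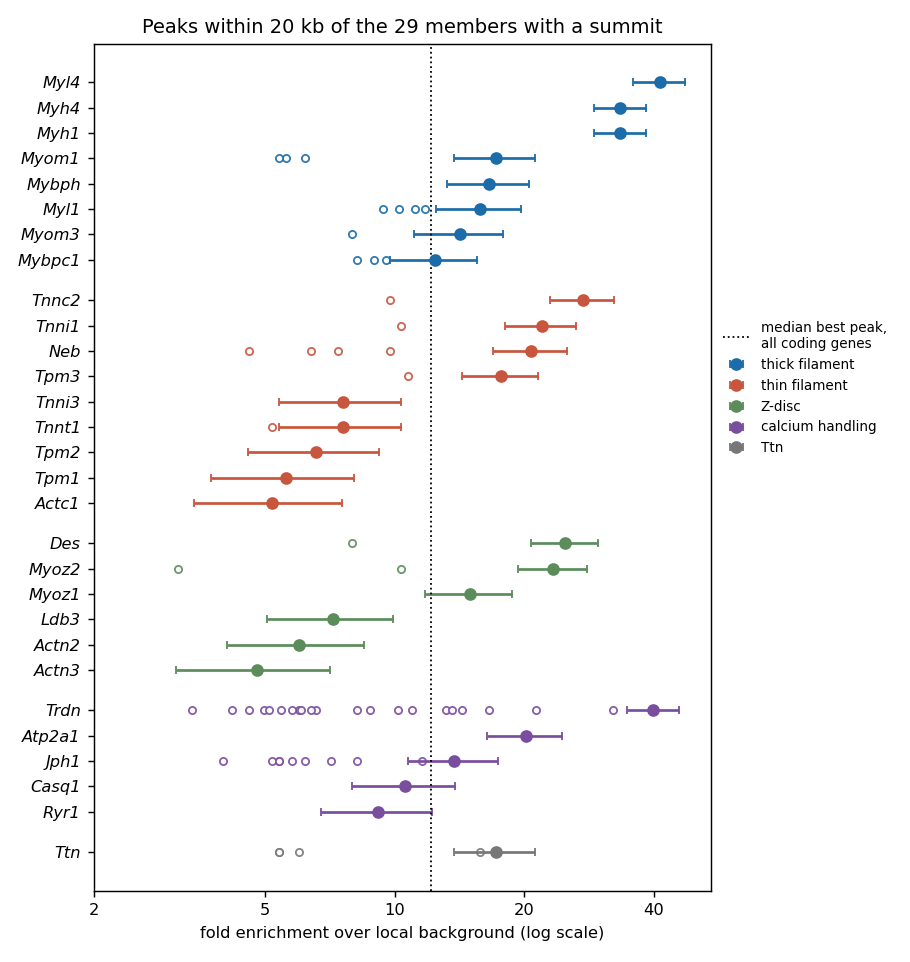
Fold enrichment over local background (log axis) of every peak within 20 kb of the 29 members with a summit, ordered by role group. Filled points are each gene's best peak with the exact Poisson 95% interval of its pileup, open points are its other peaks, and the dotted line is the median best peak of all coding genes with a summit, 12.2; *Myh1* and *Myh4* share a peak, as do *Tnni3* and *Tnnt1*.

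*Trdn* and *Jph1* together held 32 of the 84 peaks (38.1%). Counted inside the span alone, *Jph1* had 5.78 peaks per 100 kb (exact Poisson 95% interval 2.64 to 11.0) and *Trdn* had 5.09 (3.11 to 7.86). Over the 4944 coding genes longer than 50 kb the median was 1.68 (quartiles 0.686 and 2.92), and 96.4% of these genes lay below *Jph1* and 94.2% below *Trdn*. The other giants were near the middle, with 2.47 per 100 kb at *Neb* (0.803 to 5.77) and 1.79 at *Ttn* (0.583 to 4.19). Of the 9 other members longer than 50 kb, *Casq2*, *Ldb3*, *Cacna1s* and *Myom2* had no summit inside the span, and the other 5 had 1 each. *Myl1*, at 12.7 per 100 kb, lay above 98.8% of the 9015 coding genes of 10 to 50 kb, but on 3 peaks (interval 2.62 to 37.1). These genes were singled out for having 5 or more peaks, as 5 of the 48 members did (10.4%), against 7.96% of coding genes. Among genes longer than 50 kb it was 4 of 13 members (30.8%), against 29.0% of coding genes. Counting intervals treat peaks as independent, which peaks of a cluster need not be.

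Over the merged windows of all members there were 2.07 peaks per 100 kb (1.65 to 2.56), against 1.97 (1.94 to 1.99) over those of all coding genes. By group the density was 1.45 for thick filament (0.857 to 2.28), 1.84 for thin filament (1.05 to 2.99), 1.89 for Z-disc (0.862 to 3.58) and 3.26 for calcium handling (2.28 to 4.51). The calcium-handling value rested on *Trdn* and *Jph1*, and without them it was 0.840 (0.229 to 2.15), from 4 peaks. Without them the value over all members was 1.51 (1.13 to 1.98).

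**Figure D3:**
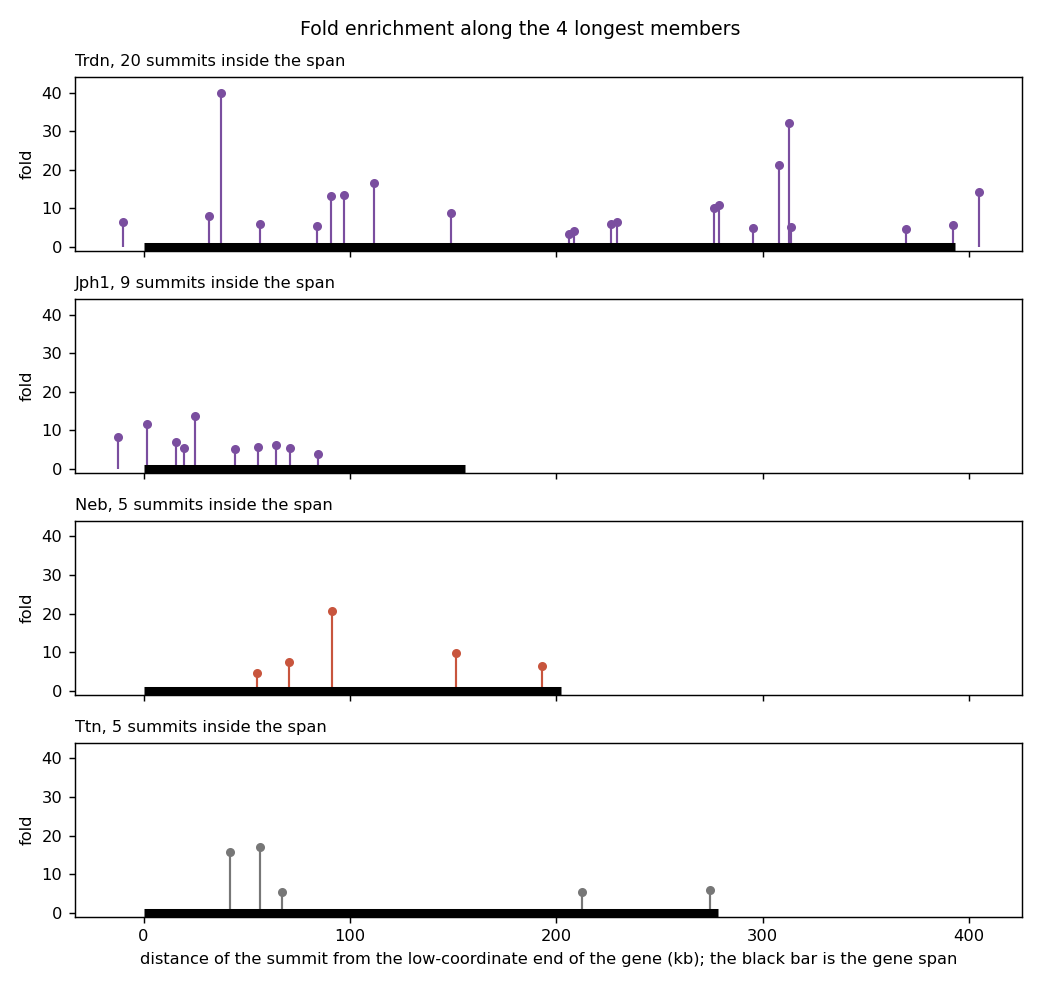
Fold enrichment of each peak of *Trdn*, *Jph1*, *Neb* and *Ttn*, the 4 longest members, against the distance of its summit from the low-coordinate end of the gene in kb. Each stem is a peak and the black bar is the gene span; *Trdn* has 20 summits inside its span and *Jph1* 9, in its low-coordinate part, while *Neb* and *Ttn* have 5 each.

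Of the 48 genes 0 had a summit within 1 kb of either end of the span, against 7.47% of all coding genes. Several lay just beyond that limit, at 1042 bp (*Trdn*), 1308 bp (*Myoz2*), 1421 bp (*Des*) and 1825 bp (*Jph1*) from an end. Of the 86 gene-peak pairs 11 had the summit within 5 kb of an end. Inside the span lay 49 pairs, of which 29 belonged to *Trdn* and *Jph1*. Of the 37 pairs outside, 18 lay upstream, 14 downstream and 5 at genes whose orientation was not used here, and in 16 of the 37 the summit was inside another gene. These pair counts were not made over all coding genes, so whether this layout differs from the background was not tested. Exons, introns and untranslated regions were not told apart here.

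For the 39 members with a listed start site, the nearest summit lay at a median distance of 22.2 kb (range 2.13 to 109.6 kb), against 21.0 kb over the 17491 coding genes with one. It was within 5 kb of a start site at 6 members (15.4%), against 3498 of those coding genes (20%), and within 20 kb at 16 (41.0%), against 48.6%. These shares were near the background. The 6 were *Mybpc1*, 2134 bp upstream (8.18-fold), *Ttn*, 3969 bp downstream (5.98-fold), *Myh4*, 4382 bp upstream (33.4-fold), *Tpm3*, 4426 bp upstream (17.6-fold), *Myl1*, 4728 bp downstream (15.8-fold), and *Tnni1*, 4916 bp upstream (10.4-fold). No summit and no peak fell in any of the 45 start-site windows of the members, each reaching from 250 bp before to 50 bp after the start. Of all 32851 windows 1.15% held a summit, a share at which 45 windows would often hold none.

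**Figure D4:**
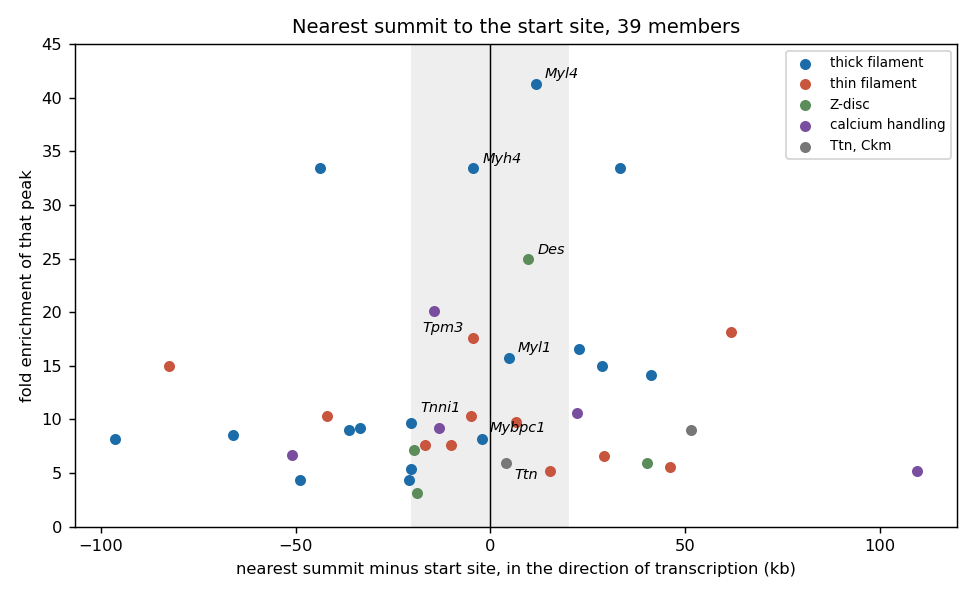
Position of the nearest summit relative to the start site (kb, in the direction of transcription, upstream negative) and its fold enrichment, for the 39 members with a listed start site. Points are genes coloured by role group and the grey band marks 20 kb on either side; 16 genes lie in the band, and none lies closer than 2.13 kb.

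Another 52 genes of the same structures, listed alongside the members, gave a similar share. A summit lay within 20 kb of 35 of them (67.3%, 52.9 to 79.7%), against the same background of 62.2%, and their windows held 159 peaks, or 2.44 per 100 kb (2.08 to 2.86), against 1.97 over all coding genes. Of the 52 genes 10 had 5 or more peaks (19.2%), against 7.96% of coding genes. All of these 10 but *Pdlim3* span more than 50 kb, a class in which 29.0% of coding genes had 5 or more. The highest best peaks were 140.8-fold at *Ryr3* and 37.7-fold at *Cacna1c*, which encode a ryanodine receptor and the cardiac calcium channel, 51.6-fold at *Pdlim5*, a Z-disc adaptor, and 47.7-fold at *Cacna2d1*, the auxiliary subunit of the calcium channels. All 4 span more than 50 kb. The median best fold enrichment of the 35 was 14.6, against 15.8 for the 29 members and 12.2 for coding genes with a summit.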

How the data were processed

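Antisera and control libraries were grouped by the antibody label, 1 library each. The submitters' processing notes name BWA, MACS2 and mm10. Peaks were called once by the authors with MACS 2.1.0.20151222, per the file headers, from paired-end fragments, antisera against control, at a q-value threshold of 0.01, with 1 fragment kept per position. How mapped reads were filtered is not stated in these sources. The deposited pileup is a signal, fragments over the summit. For each peak the p-value and the q-value are given by the authors as −log10, and the deposited fold enrichment is a ratio with 1 added to both terms. All are the authors' values, used only to describe peaks within the list. Columns of other samples not used numbered 0.

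Local background was recovered from pileup and fold. The recomputed Poisson −log10 p matched within 1% for 100% of 50196 peaks. The other 1160, all with a deposited −log10 p of 310.7 or more, gave no finite value and were not checked. Gene spans, start sites and sequences came from RefSeq tables for GRCm38.p6. Python 3.11.15, pandas 2.3.3 and scipy 1.17.1 were used, and gene assignment was tested on simulated data. Exact binomial and Poisson intervals are at 95% and cover counting error only. For the best peaks of each role group's 4 strongest members, fold enrichment and its interval are given, with pileup, background and q-value for some only. Members with 5 or more peaks were singled out by rule. *Cacna1s*' outside peak was named after its value was seen. Alternatives were other distances, stricter peak thresholds, overlap in place of summit and nearest gene only. The members and lists were chosen with earlier results of these data known.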

Additional observations from a re-analysis of the deposited data

How the results depend on the processing

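With 10 alternatives, 48 of 79 recomputed values stayed within 1.5 times the main count or, for the median fold enrichment, within its interval. Stricter q (−log10 q of 5 or more) and any overlap in place of the summit moved no value that far. Removal of peaks with a background of 10 or more moved none either, but it could not change the members' values. The highest background at a member peak was 6.73, so those unchanged values among the 48 carry no information. Within 5 kb, 17 members had a summit (35.4%, against 43.2% of coding genes), with 4 thin filament, 3 Z-disc and 3 calcium-handling genes. With each peak given to its nearest coding gene only, these counts were also 17 (against 46.8%), 4, 3 and 3. Within 1 kb and in the gene span alone, 12 members had a summit (25%, against 35.0% and 32.2%), with 5 thick filament, 2 thin filament, 1 Z-disc and 3 calcium-handling genes and 49 peaks. Within 50 kb, 15 thick filament genes had a summit, and 41 members in all (85.4%, against 81.2%). Among the strongest 10% of peaks, 6 peaks lay at 6 members (12.5%, against 13.1%), 3 thick filament, 1 thin filament, 1 Z-disc and 1 calcium-handling gene, with a median best fold enrichment of 33.4, and 11 other sarcomere genes had a summit. Fewer peaks or shorter windows lower these counts by construction. Leaving out *Trdn* and *Jph1*, an alternative chosen after seeing the data, left 3 calcium-handling genes and 52 peaks. No paired analysis was possible because each antibody has 1 library. Depth limits the weak peaks most: at the lowest pileup of 16 fragments the fold enrichment of 3.39 has an interval of 2.02 to 5.38.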

Other observations

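Genes used mainly in fast fibres and genes used mainly in slow or cardiac muscle were set side by side, a grouping by textbook role that was chosen after the values were seen. The 13 fast-twitch genes were *Myh1*, *Myh2*, *Myh4*, *Myl1*, *Mylpf*, *Tnnt3*, *Tnni2*, *Tnnc2*, *Mybpc2*, *Actn3*, *Myoz1*, *Casq1* and *Atp2a1*. The 15 cardiac or slow-twitch genes were *Myh6*, *Myh7*, *Myl2*, *Myl3*, *Myl4*, *Tnnt1*, *Tnnt2*, *Tnni1*, *Tnni3*, *Tnnc1*, *Myoz2*, *Casq2*, *Mybpc1*, *Tpm3* and *Actc1*. A summit lay within 20 kb of 8 of the 13 fast-twitch genes (61.5%, exact binomial 95% interval 31.6 to 86.1%) and of 8 of the 15 cardiac or slow-twitch genes (53.3%, 26.6 to 78.7%), against 62.2% of all coding genes. The median best fold enrichment was 18.0 over the fast-twitch genes with a summit, led by *Myh1* and *Myh4* with their shared 33.4-fold peak and *Tnnc2* at 27.3-fold. It was 15.0 over the cardiac or slow-twitch genes with a summit, led by *Myl4* at 41.3-fold and *Myoz2* at 23.3-fold. Each median counts a shared peak once per gene, and *Tnni3* and *Tnnt1* of the slow set share their 7.58-fold peak. With each shared peak counted once, the middle value is 15.8 (*Myl1*) for the fast-twitch genes and 17.6 (*Tpm3*) for the others. The order of the medians thus depends on how shared peaks are counted, and no test between the sets was made.

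The letters TGATT, then any base, then AAT, on either strand, were chosen after the sequence under the *Myl4* peak was seen, and that sequence holds them on its other strand. They were present in 59 of the 379 start-site windows with a summit (15.6%), against 177 of the 32472 without (0.545%), and in 0 of the 45 windows of the members.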
